A study of Mus musculus with 12 samples.

Results

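Collagens form the scaffold of skin, and 41 collagen chain genes other than Col17a1 were followed across 12 mouse skin cell samples. The 41 were all genes on the array whose name had the form of a collagen alpha chain, out of 34763 gene names, after Col17a1, Col8a2 and Col27a1 were left out. Both Col8a2 and Col27a1 passed the plucking threshold given below (adjusted p = 0.0448 for each, limma), so counts of chains that changed with plucking do not include them. Col8a2 also passed in the comparisons of epidermal and stem cells below, so their counts lack it as well. A gene with more than 1 probe, as 17 of the 41 had, was represented by the probe with the highest mean level. The rule used no difference between groups, but it was written with earlier results of these data known.

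Each collagen molecule is a triple helix of 3 alpha chains, made in the endoplasmic reticulum with the help of hydroxylases and chaperones. Fibrillar collagens assemble into the ropes of the dermis, type IV chains into the sheet of the basement membrane under the epidermis, and type VII collagen into the anchoring fibrils that tie that sheet to the dermis. Most collagen of skin is made by fibroblasts, while keratinocytes are known to make chains of the basement membrane zone and of the transmembrane collagens.

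The study concerns hair follicle aging and the transmembrane collagen COL17A1 of the hemidesmosome. Each of the 12 groups held 1 one-colour Agilent array. Hair follicle stem cells (HFSCs, sorted on high CD34, high ITGA6 and no SCA1) came from 4 kinds of mice, each unplucked and 3 days after manual depilation. These were wild-type C57BL/6 mice of 8 weeks ("young"), wild-type C57BL/6 mice of at least 22 months ("aged"), wild-type C57BL/6 mice of 12 weeks given 2 mg of tamoxifen by intraperitoneal injection for 5 days ("control"), and Col17a1 cKO mice of 12 weeks given the same tamoxifen ("cKO"). The cKO labels name the K14 promoter, which is active in basal keratinocytes, and give no strain. Interfollicular epidermal cells (IFE, sorted on high ITGA6 with high SCA1) and whole epidermis came from the young and the aged wild-type mice only, without plucking. The labels do not say whether samples came from separate animals or pools, so p-values reflect only how these samples spread, and part of that may be technical.

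Per array, 49.71% to 64.97% of the spots stood well above background. The unplucked control and unplucked cKO arrays stood apart from the rest, with median correlations to the other arrays of 0.888 and 0.893, against 0.907 to 0.93 elsewhere. Keratin 5, keratin 14 and Trp63, which define basal keratinocytes, were well above background on all 12 arrays. Of 5 HFSC markers, 4 were lower in IFE than in HFSCs and none was higher (limma, adjusted p under 0.05), and Ly6a, which encodes SCA1, was higher in IFE by 4.76 ± 0.47 (log2, SE, 2 pairs). Young and aged samples lay in different rows of slide 1, and HFSCs, IFE and total epidermis in different columns of it, so age and slide row, and population and slide column, cannot be told apart. Control and cKO samples lay on slide 2, control in columns 1 and 2 and cKO in columns 3 and 4. Genotype and slide column thus cannot be told apart either.

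Levels below are log2 intensities relative to the 75th percentile of the same array, and a difference of 1 is a factor of 2. They compare 1 gene across arrays, since probes differ in brightness. A chain is called measured on an array where the scanner software marked it well above background. By that mark 14 of the 41 chains were measured on all 12 arrays, 19 on 1 to 11 arrays and 8 on none. Over all gene names, 46.1% were measured on all arrays and 15.9% on none.

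**Figure D1:**
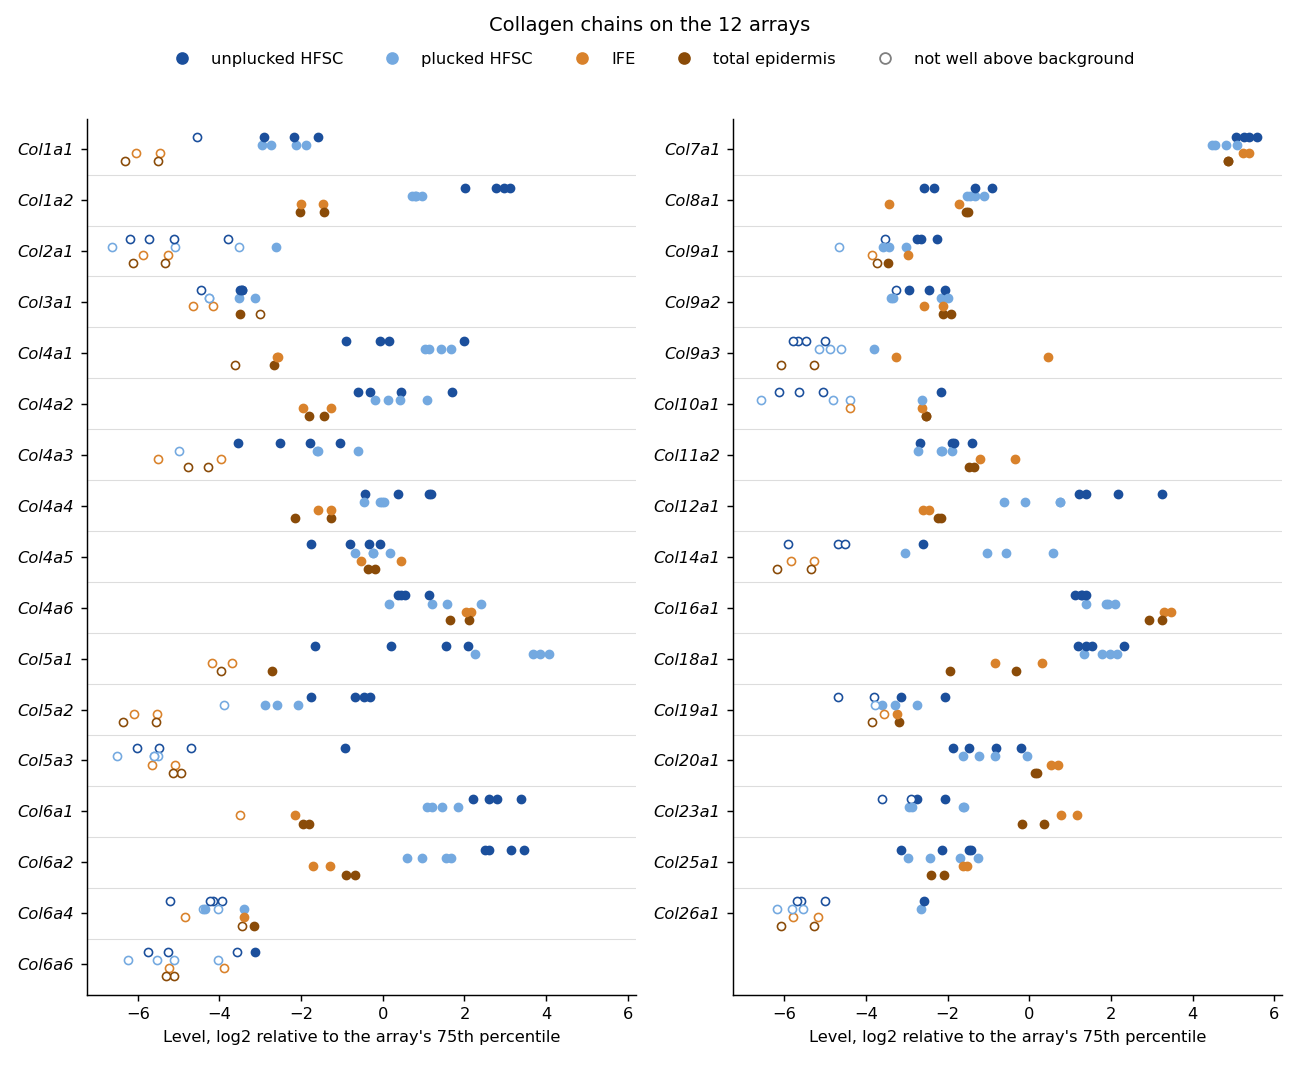
Level of the 33 collagen chains measured on at least 1 array, on the log2 scale relative to each array's 75th percentile. Each point is 1 array, coloured by the kind of cells, and open points were not well above background. Col1a2, Col6a1, Col6a2 and Col12a1 lay higher on all 8 HFSC arrays than on all 4 epidermal arrays, and Col16a1 and Col23a1 lay lower.

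The 14 chains on all arrays belonged to most classes. They were Col1a2 and Col11a2 of the fibrillar collagens, Col4a2, Col4a4, Col4a5 and Col4a6 of the basement membrane network, Col6a2 of the beaded filaments, and Col7a1 of the anchoring fibril. They also included Col8a1, a short-chain collagen, Col12a1, Col16a1 and Col20a1, which are FACIT collagens that sit on or beside fibrils, Col18a1, a basement membrane proteoglycan collagen, and Col25a1, a transmembrane collagen. The 8 on no array were Col6a3, Col6a5, Col11a1, Col13a1, Col15a1, Col22a1, Col24a1 and Col28a1. Col6a3 is the usual partner of Col6a1 and Col6a2, and its only probe was not well above background where both partners were measured.

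Promoter sequence is shown for 6 chains that passed the test between IFE and HFSCs given below, 4 lower in IFE (Col1a2, Col5a1, Col6a1 and Col6a2) and 2 higher (Col16a1 and Col23a1). The table of RefSeq promoters (GRCm38.p6) held 32 of the 41 genes, in 35 windows, and among the chains of the next comparison it had no entry for Col1a1, Col5a2 and Col12a1. Each line gives the 250 bases before the transcription start, 5′ to 3′ on the strand of the gene. Capitals mark matches on either strand to CCAAT (the CCAAT box), to TATAAA (the TATA box), to GGGCGG (the GC box) or to TGANTCA (the AP-1 motif). No matches overlapped in these 6 sequences.
Col1a2 (chr6:4505368-4505617, plus strand): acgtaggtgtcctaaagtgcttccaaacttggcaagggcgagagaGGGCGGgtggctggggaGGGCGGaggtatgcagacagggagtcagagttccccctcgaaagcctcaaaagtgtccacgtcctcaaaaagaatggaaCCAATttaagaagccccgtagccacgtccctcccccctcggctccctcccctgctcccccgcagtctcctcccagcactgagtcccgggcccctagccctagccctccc
Col5a1 (chr2:27886175-27886424, plus strand): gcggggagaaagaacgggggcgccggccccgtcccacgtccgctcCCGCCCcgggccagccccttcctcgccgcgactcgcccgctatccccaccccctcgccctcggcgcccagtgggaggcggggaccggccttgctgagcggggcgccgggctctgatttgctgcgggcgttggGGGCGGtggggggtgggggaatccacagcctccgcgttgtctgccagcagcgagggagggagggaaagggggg
Col6a1 (chr10:76726045-76726294, minus strand): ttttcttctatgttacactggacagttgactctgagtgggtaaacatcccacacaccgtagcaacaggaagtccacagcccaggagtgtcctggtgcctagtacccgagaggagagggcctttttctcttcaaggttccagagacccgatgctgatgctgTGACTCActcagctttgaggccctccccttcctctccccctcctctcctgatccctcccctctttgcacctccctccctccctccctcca
Col6a2 (chr10:76623631-76623880, minus strand): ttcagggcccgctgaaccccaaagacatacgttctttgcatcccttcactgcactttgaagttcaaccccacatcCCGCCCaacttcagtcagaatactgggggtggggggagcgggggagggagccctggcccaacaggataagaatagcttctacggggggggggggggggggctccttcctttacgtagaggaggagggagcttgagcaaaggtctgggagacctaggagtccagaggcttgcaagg
Col16a1 (chr4:130047590-130047839, plus strand): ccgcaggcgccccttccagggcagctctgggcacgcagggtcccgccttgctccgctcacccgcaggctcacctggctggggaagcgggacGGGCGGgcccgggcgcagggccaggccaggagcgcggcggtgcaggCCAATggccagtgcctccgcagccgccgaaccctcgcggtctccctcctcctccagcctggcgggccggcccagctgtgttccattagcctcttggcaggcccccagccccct
Col23a1 (chr11:51289670-51289919, plus strand): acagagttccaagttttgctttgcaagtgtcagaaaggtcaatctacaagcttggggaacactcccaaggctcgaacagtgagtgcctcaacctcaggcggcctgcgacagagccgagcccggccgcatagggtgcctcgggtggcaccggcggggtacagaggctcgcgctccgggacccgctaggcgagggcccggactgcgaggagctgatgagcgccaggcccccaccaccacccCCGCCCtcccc

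None of the 6 sequences held TATAAA, which 12.4% of all 32851 promoter windows of this length held and 4 of the 35 collagen windows did. A GGGCGG match stood in 5 of the 6, against 32.7% of all windows and 20 of the 35 collagen windows. Col1a2 and Col16a1 each held 1 CCAAT, 109 and 113 bases before the start, against 33.8% of all windows and 12 of the 35. The TGACTCA of Col6a1, 90 bases before its start, was the only TGANTCA among the 35 collagen windows, against 6.75% of all windows. Guanine and cytosine made up between 56% of the Col6a1 and 76.4% of the Col5a1 sequence. A match describes the letters only.

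HFSCs and epidermal cells differed in which collagen chains they carried. In the unplucked young and aged mice, 7 chains were lower in IFE than in HFSCs and 2 were higher, of 28 tested (limma with age as a term, Benjamini-Hochberg adjusted p under 0.05 over all genes). Over all 23957 genes tested, 2.64% were lower and 2.1% higher. In total epidermis 8 chains were lower than in HFSCs and 1 was higher, against 2.02% lower and 1.87% higher over all genes. The lower chains were Col1a1, Col1a2, Col5a1 and Col5a2 of the fibrillar collagens, Col6a1 and Col6a2 of the beaded filaments and the FACIT Col12a1 in both comparisons, with Col4a1 in addition in total epidermis. Col8a2, left out by the rule and so not counted, was also lower in both (limma, adjusted p = 0.00937 in IFE and 0.0195 in total epidermis). The median difference of the tested chains was -0.67 in IFE and -0.53 in total epidermis, beside 0.09 and 0.07 over all genes. The IFE and total epidermis comparisons share their HFSC arrays. Col1a1 and Col5a2, and Col5a1 in IFE, were tested although only the HFSC side measured them. Among the 15 chains measured on all 6 arrays, 3 were lower in IFE (Col1a2, Col6a2 and Col12a1) and 2 higher (Col16a1 and Col4a6). Of all 18139 genes measured on all 6 arrays, 595 were lower and 582 higher in IFE. In total epidermis 4 of the 15 chains were lower, Col18a1 in addition, and the same 2 higher, beside 555 lower and 577 higher of the 18139 genes.

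**Figure D2:**
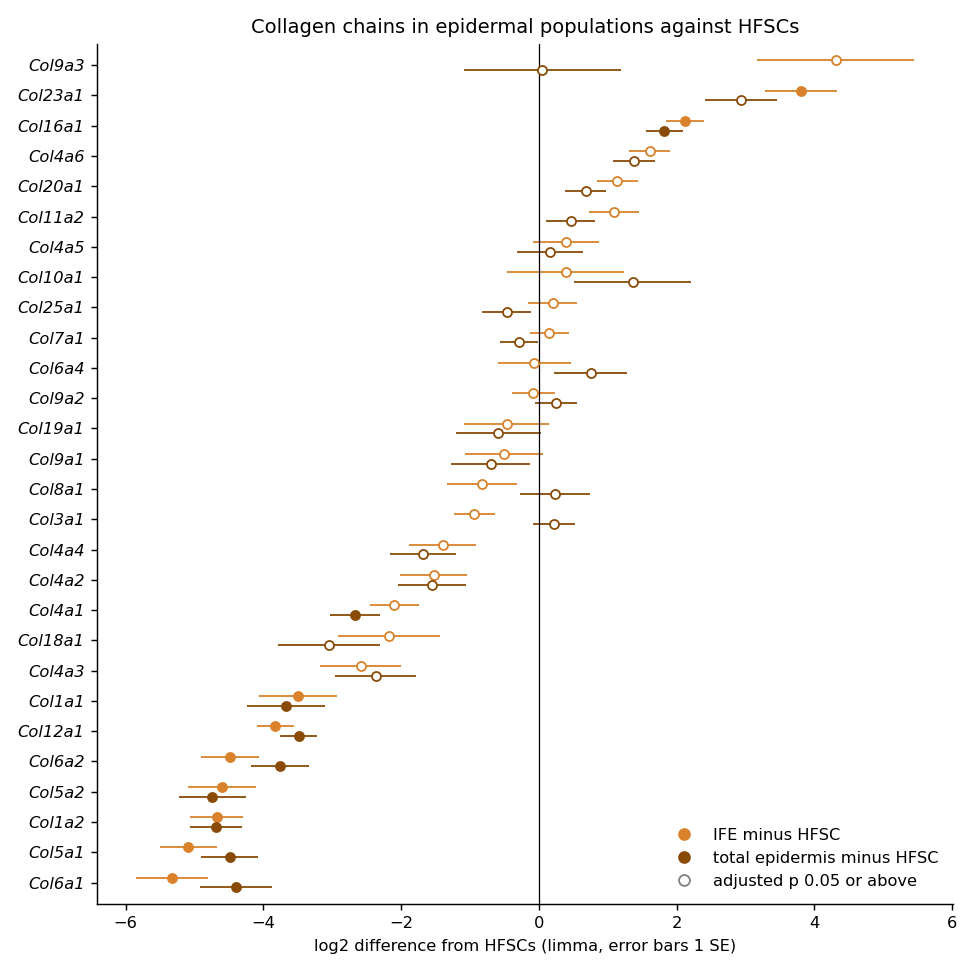
Difference of IFE and of total epidermis from HFSCs in the log2 level of each of the 28 chains tested, with 1 SE, over the young and the aged pair. Filled points had an adjusted p under 0.05 in limma. The fibrillar chains Col1a1, Col1a2, Col5a1 and Col5a2, with Col6a1, Col6a2 and Col12a1, lie at -3.49 or below in both, and Col16a1 lies above 1.8 in both.

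Col1a2, the second chain of type I collagen, stood at 3.11 in young and 2.78 in aged HFSCs, at -1.47 and -2.01 in young and aged IFE, and in total epidermis at -2.03 (young) and -1.45 (aged) (probe at mm9 chromosome 6, 4490619 to 4490678). Every epidermal array lay below every HFSC array. The difference was -4.68 ± 0.38 in IFE, 25.7-fold lower (adjusted p = 0.0121), and -4.69 ± 0.38 in total epidermis (adjusted p = 0.0198). Col1a1, the partner chain, was at -1.58 and -2.91 in young and aged HFSCs and was not well above background on any of the 4 epidermal arrays, at -6.31 to -5.45. Counted against the lowest signal well above background, it was at least 2.42-fold lower in IFE (adjusted p = 0.0468) and at least 2.67-fold lower in total epidermis (adjusted p = 0.0465). With normexp background correction and quantile normalization, the Col1a1 calls were lost, at -0.82 and -0.87 (adjusted p = 0.122 and 0.103). They were also lost with scaling to the median (adjusted p = 0.0563 and 0.0532) and without the filter on dim genes (adjusted p = 0.0752 and 0.0763). Col3a1, the chain of type III collagen, was dim, measured on 5 of 12 arrays, and differed by -0.94 ± 0.30 in IFE (adjusted p = 0.182) and 0.22 ± 0.30 in total epidermis (adjusted p = 0.734).

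Type V collagen starts the assembly of fibrils and is built from Col5a1 and Col5a2. Col5a1 was at 2.08 and 0.21 in young and aged HFSCs, at -3.69 and -4.19 in young and aged IFE, both not well above background, and in total epidermis at -2.72 (young) and -3.97 (aged). It was at least 25.4-fold lower in IFE (measured difference -5.09 ± 0.41, adjusted p = 0.0121) and differed by -4.49 ± 0.41 in total epidermis (adjusted p = 0.0229), where only the young array measured it. Col5a2 was at -1.75 and -0.68 in young and aged HFSCs and not well above background on any epidermal array, at -6.36 to -5.52. It was at least 4.94-fold lower in IFE (adjusted p = 0.0195) and at least 5.47-fold lower in total epidermis (adjusted p = 0.0256). Both type V chains were therefore measured in HFSCs and at or near the floor in epidermal cells.

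Type VI collagen forms beaded filaments near basement membranes. Col6a1 was at 2.80 and 2.22 in young and aged HFSCs, at -3.49 and -2.14 in young and aged IFE, the first of these not well above background, and in total epidermis at -1.95 (young) and -1.82 (aged). Its difference was -5.33 ± 0.52 in IFE (adjusted p = 0.0169) and -4.40 ± 0.52 in total epidermis (adjusted p = 0.0309, or 0.0523 without the filter on dim genes). Col6a2, at 3.47 and 2.50 in young and aged HFSCs, was at -1.71 and -1.29 in IFE and -0.67 and -0.90 in total epidermis, a difference of -4.48 ± 0.42 (adjusted p = 0.0155) and -3.76 ± 0.42 (adjusted p = 0.0282). The groups did not overlap for either chain. The other probe of Col6a2 was lower in the epidermal cells as well, by means of -4.59 in IFE and -4.74 in total epidermis.

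Col12a1, which decorates fibrils of type I collagen, was at 1.38 and 1.22 in young and aged HFSCs, at -2.59 and -2.46 in young and aged IFE, and in total epidermis at -2.16 (young) and -2.23 (aged). It was 14.2-fold lower in IFE (-3.83 ± 0.27, adjusted p = 0.011) and 11.3-fold lower in total epidermis (-3.49 ± 0.27, adjusted p = 0.0195). Its other probe differed by only -0.63 and -0.24 on average, so the size rests on the brighter probe, and with the mean over both probes the total epidermis difference was -1.87 (adjusted p = 0.0701). With normexp background correction and quantile normalization the IFE difference was smaller by more than 1.5-fold for Col1a2 (-3.84), Col5a1 (-2.88), Col5a2 (-1.52), Col6a1 (-3.65), Col6a2 (-3.79) and Col12a1 (-2.51). All 6 calls were kept there.

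The control and cKO HFSC arrays and the plucked ones played no part in those fits. When all 8 HFSC arrays were set against the 4 epidermal arrays, 11 of 30 chains lay lower on every epidermal array, and 4.19% of all genes did. These were the 8 chains called in total epidermis with Col4a2, Col4a4 and Col18a1. Another 3 lay higher on every epidermal array, namely Col16a1, Col20a1 and Col23a1, against 4.81% of all genes. Both counts reuse the epidermal and the unplucked young and aged HFSC arrays, so chains called in the fits were favoured in advance. Col1a1 in unplucked control HFSCs (-4.56) and Col5a2 in plucked aged HFSCs (-3.89) were not well above background, nor were their epidermal values. In bulk samples, fewer cells of a type and less RNA per cell cannot be told apart.

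The chains higher in epidermal cells were a FACIT and a transmembrane collagen. Col16a1, which is known in skin near the basement membrane, was at 1.29 and 1.26 in young and aged HFSCs, 3.31 and 3.48 in young and aged IFE, and 2.94 and 3.25 in young and aged total epidermis. It was 4.34-fold higher in IFE (2.12 ± 0.27, adjusted p = 0.0295) and 3.54-fold higher in total epidermis (1.82 ± 0.27, adjusted p = 0.0451). The total epidermis call was lost when arrays were scaled to their median (1.62, adjusted p = 0.0779), and both were lost with the mean over its 4 probes, at 1.40 and 1.24 (adjusted p = 0.0703 and 0.0924), or without the filter on dim genes (adjusted p = 0.0667 and 0.0991). Of the 4 probes, 1 was well above background on no array, and it enters that mean over all 4. The other probes had positive mean differences, from 0.69 to 2.15 in IFE and from 0.21 to 1.82 in total epidermis.

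Col23a1 is a transmembrane collagen, like Col17a1. Young and aged HFSCs gave -2.07 and -3.61, the latter not well above background, at 0.77 and 1.18 in young and aged IFE, and in total epidermis at 0.36 (young) and -0.18 (aged). It was higher in IFE (3.81 ± 0.52, adjusted p = 0.0335, with only the young HFSC array measuring it), a call lost without the filter on dim genes (adjusted p = 0.0528). In total epidermis the difference was 2.93 ± 0.52 (adjusted p = 0.0617). Its other 2 probes gave 3.69 and 4.02 in IFE. Col20a1 differed by 1.14 ± 0.30 in IFE (adjusted p = 0.128).

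Between IFE and total epidermis, 0% of the genes and no chain passed the test in limma, and 2 of the 28 chains had an unadjusted p under 0.05, beside 4.08% of all genes. These were Col3a1 (-1.15 ± 0.30, adjusted p = 0.785) and Col9a3 (4.27 ± 1.14, adjusted p = 0.832). Col9a3, a chain of the cartilage FACIT type IX collagen, was measured in IFE at 0.45 in the young and -3.26 in the aged sample, and on only 1 of the other 10 arrays, the plucked cKO array at -3.81. The young IFE value was thus far above every other, and it had no replicate.

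Of the 6 type IV chains, 0 passed the test in IFE and 1, Col4a1, was lower in total epidermis, against HFSCs. Type IV trimers are known from Col4a1 with Col4a2, from Col4a3 to Col4a5, and from Col4a5 with Col4a6, and the genes lie in head-to-head pairs. In the RefSeq promoter table (GRCm38.p6) the starts of Col4a1 and Col4a2 were 21 bases apart on chromosome 8, and those of Col4a5 and Col4a6 1343 bases apart on chromosome X.

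**Figure D3:**
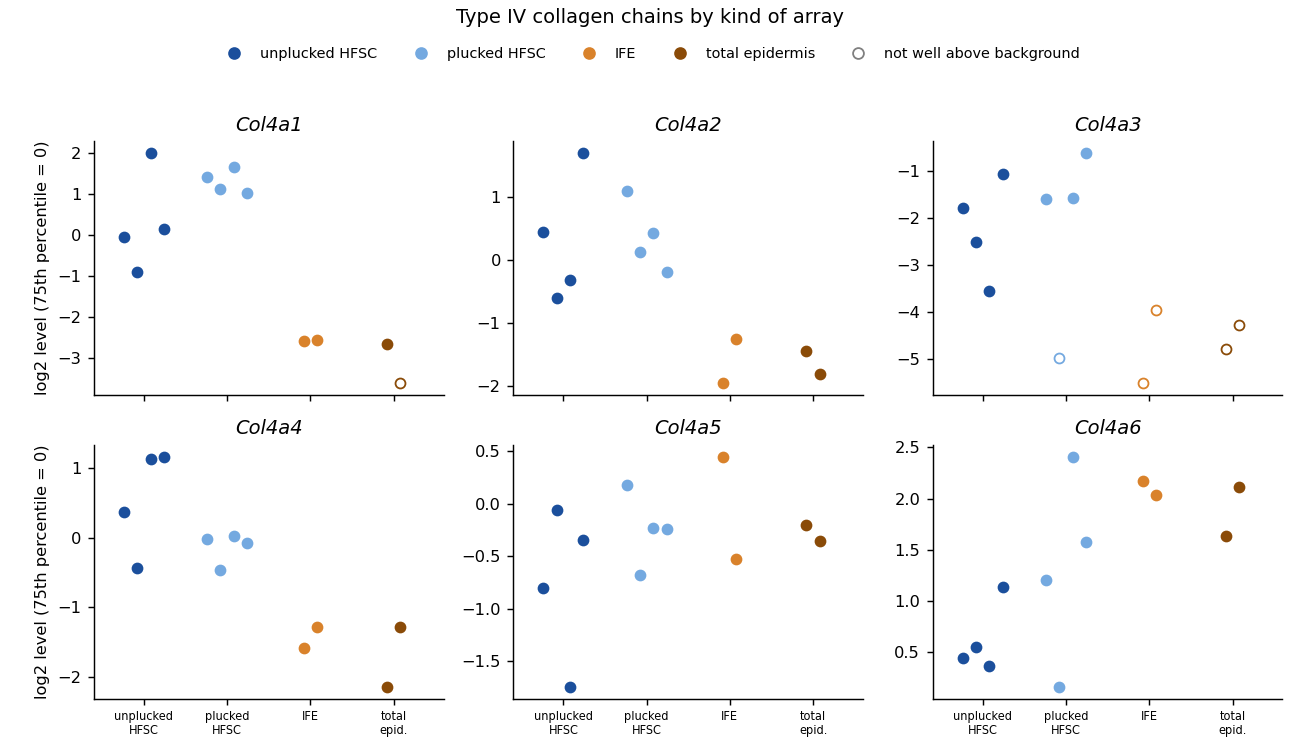
Levels of the 6 type IV chains on the log2 scale relative to each array's 75th percentile, by kind of array, 1 point per array, with open points not well above background. Col4a1, Col4a2 and Col4a4 lie lower on all 4 epidermal arrays than on the 8 HFSC arrays, Col4a5 overlaps throughout, and Col4a6 lies at 1.64 to 2.17 on the epidermal arrays.

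Col4a1, one of the chains of every basement membrane, stood at -0.06 and -0.90 in young and aged HFSCs, -2.59 and -2.57 in young and aged IFE, and in total epidermis -2.67 in the young and -3.62 in the aged sample, the last not well above background. It was lower in total epidermis (measured difference -2.67 ± 0.36, adjusted p = 0.0382), where only the young array measured it, and this call was lost without the filter on dim genes (adjusted p = 0.0699). In IFE it differed by -2.10 ± 0.36 without passing the test (adjusted p = 0.0525), though it passed with normexp and quantile normalization. It also passed with the mean over all probes, but it has only 1 probe, so its difference was the same and only other genes changed. Its partner Col4a2 differed by -1.53 ± 0.49 in IFE and -1.55 ± 0.49 in total epidermis (adjusted p = 0.184 and 0.179). Col4a3 was measured in both HFSC samples and in none of the epidermal ones, at least 2.58-fold apart in IFE (adjusted p = 0.0956). Col4a4 differed by -1.40 ± 0.48 in IFE (adjusted p = 0.206). None of these 3 chains passed the test. Among 6 endothelial markers, Pecam1, Cdh5 and Emcn were well above background on 1 array each, Tek on 3, Egfl7 on 8 and Kdr on 12. Egfl7 was at -1.66 (young) and -0.80 (aged) in HFSCs, with -5.51 (young) and -3.63 (aged) in IFE, without passing the test (-3.34 ± 0.74, adjusted p = 0.0893). The median difference of the 2 endothelial markers tested, Egfl7 and Kdr, was -1.57 in IFE and -1.88 in total epidermis. Kdr, at 1.15 to 1.77 on all arrays, made up most of the sum on most of them, and the log2 of the summed level of the 6 markers was 1.5 to 2.82 in unplucked HFSCs, 1.78 to 1.86 in IFE and 1.69 to 1.74 in total epidermis. Among 6 smooth muscle and pericyte markers, Rgs5 and Des were on no array. Cspg4 was at 1.05 (young) and 0.61 (aged) in HFSCs, with -1.57 (young) and -1.08 (aged) in IFE (-2.15 ± 0.37, adjusted p = 0.0535). Tagln was at 1.00 and 1.04 in young and aged HFSCs, with 1.05 and 1.45 in IFE. Myh11 was at -2.21 in both HFSC samples, with -2.17 and -2.14 in IFE. Acta2 was at -2.92 and -1.08 in HFSCs, with -3.36, not well above background, and -1.82 in IFE. The median difference of the 4 tested was -0.27 in IFE and -0.35 in total epidermis. The summed level of the 6 markers was 2.11 to 3.04 in unplucked HFSCs, 1.48 to 1.93 in IFE and 1.33 to 1.81 in total epidermis. Their part in the result was not tested.

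The pair on the X chromosome gave other values. Col4a6 was at 0.44 and 0.55 in young and aged HFSCs, 2.17 and 2.04 in young and aged IFE, and 1.64 and 2.11 in young and aged total epidermis, above HFSCs on every array of this comparison. The difference was 1.61 ± 0.30 in IFE and 1.38 ± 0.30 in total epidermis and did not pass the test (adjusted p = 0.0609 and 0.0896), though it did with normexp and quantile normalization and with only genes measured on all 6 arrays. Its other probe gave smaller means of 0.81 in IFE and 0.40 in total epidermis. Of the plucked HFSC arrays, the control one at 2.41 lay above all epidermal values and the cKO one at 1.58 just below them. Col4a5 differed by 0.39 in IFE and 0.16 in total epidermis, and the second of these turns negative when arrays are scaled to their median, which shifts all genes of that comparison by -0.20.

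Col7a1, the anchoring fibril collagen that keratinocytes make, was bright everywhere, at 4.48 to 5.59 over the 12 arrays. It differed by 0.15 ± 0.28 in IFE (adjusted p = 0.819) and by -0.29 ± 0.28 in total epidermis (adjusted p = 0.61). Col18a1, the source of endostatin, was at 2.31 and 1.53 in young and aged HFSCs, 0.32 and -0.85 in young and aged IFE, and -1.93 and -0.33 in young and aged total epidermis. Its differences of -2.18 ± 0.74 and -3.05 ± 0.74 did not pass the test (adjusted p = 0.207 and 0.114), though the second did with only genes measured on all 6 arrays, and its other probe gave means of -2.57 and -3.48. Its relative Col15a1 was measured on no array.

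Markers of fibroblasts were looked at beside these chains, since fibroblasts make most type I, V and VI collagen. Of 8 markers, Pdgfra, Dpt and Lum were well above background on 0 of 12 arrays, Dcn on 3, Twist2 on 6, Thy1 on 11, and Pi16 and Fbln1 on all 12. The log2 of their summed level ranged from 3.86 to 5.34 in unplucked and 4.44 to 5.32 in plucked HFSCs, 2.70 to 2.92 in IFE and 2.24 to 3.17 in total epidermis. Fbln1, a matrix protein of connective tissue, was lower in IFE (-5.46 ± 0.38, adjusted p = 0.011) and in total epidermis (-4.82 ± 0.38, adjusted p = 0.0196) and made up most of that sum in HFSCs. Over the other 7 markers the sum was -1.35 to 1.03 in unplucked HFSCs and 2.64 to 2.83 in IFE. In IFE that sum was mostly Thy1, at 2.74 in the young and 2.52 in the aged sample. Their part in the result was not tested.

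A few genes that act on collagen passed the test between the same arrays, on lists of biosynthesis, crosslinking, receptors, degradation and small proteoglycans. All genes tested set the background, 2.64% lower and 2.1% higher in IFE and 2.02% lower and 1.87% higher in total epidermis, with medians of 0.09 and 0.07. Of 23 biosynthesis genes tested, 3 were lower and 1 higher in IFE than in HFSCs, and again 3 and 1 in total epidermis, with list medians of -0.30 and -0.53. Serpinh1, the collagen chaperone HSP47, was at 1.81 to 2.98 on the 8 HFSC arrays and -0.47 to 0.32 on the 4 epidermal arrays, a difference of -2.32 ± 0.28 in IFE (adjusted p = 0.0243) and -2.20 ± 0.28 in total epidermis (adjusted p = 0.0342). Fkbp10, a prolyl isomerase for collagen folding, was at least 20.3-fold lower in IFE (adjusted p = 0.0131) and at least 22.4-fold lower in total epidermis (adjusted p = 0.0239). None of the 4 epidermal arrays measured Fkbp10, so it was tested only through the HFSC side.

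P3h4, which takes part in lysine hydroxylation, differed by -1.83 ± 0.29 in IFE (adjusted p = 0.0437). In total epidermis the other lower biosynthesis gene was Pcolce2, an enhancer of procollagen cleavage, at least 34.8-fold lower (adjusted p = 0.048). Neither total epidermis value of Pcolce2 was well above background. Adamts14, a procollagen N-proteinase, went the other way and was 23-fold higher in IFE (4.52 ± 0.27, adjusted p = 0.00977) and 15.5-fold higher in total epidermis (adjusted p = 0.0195). Serpinh1 and Fkbp10 thus had the sign of the 7 chains lower in both comparisons, and Adamts14 did not.

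**Figure D4:**
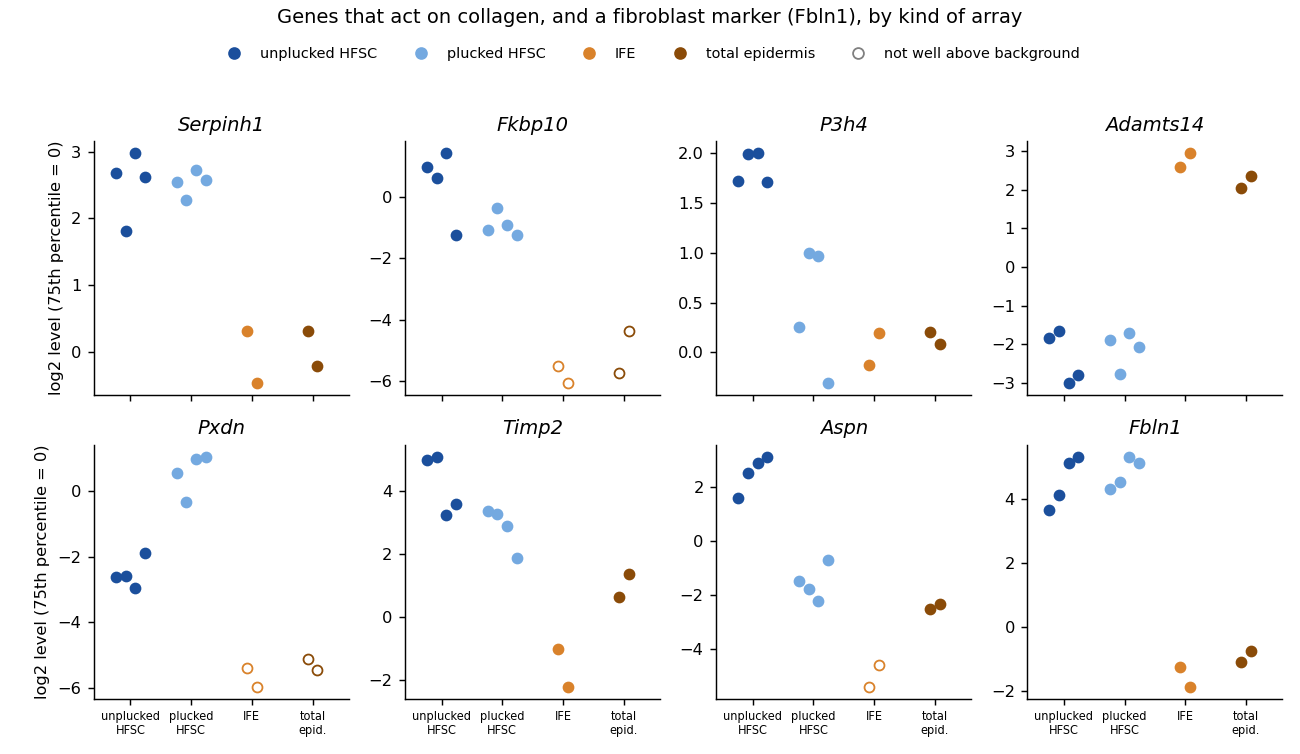
Levels of 7 genes that act on collagen and of the fibroblast marker Fbln1, on the log2 scale relative to each array's 75th percentile, by kind of array, 1 point per array. Serpinh1, Fkbp10, Timp2 and Fbln1 lie higher on all 8 HFSC arrays than on the 4 epidermal arrays, Adamts14 lies lower, and Pxdn and Aspn also separate plucked from unplucked HFSCs.

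Of 5 crosslinking genes tested, 1 was lower in IFE, Pxdn, the peroxidasin that crosslinks type IV collagen (measured difference -3.07 ± 0.30, adjusted p = 0.0165). Neither IFE value of Pxdn, at -5.38 (young) and -5.97 (aged), was well above background, so the size of its difference is limited by background. The list median was -0.33. Of 8 receptor genes, 1 was higher, the collagen receptor Ddr2 (at least 1.75-fold, adjusted p = 0.0348), with a list median of -0.55. Of 4 degradation genes, 1 was lower, Timp2, an inhibitor of matrix metalloproteinases (-6.67 ± 0.52, adjusted p = 0.0119), with a list median of -0.86. Of 3 small proteoglycans tested, Aspn was at least 48.1-fold lower (adjusted p = 0.00937) and Bgn at least 27.7-fold lower (adjusted p = 0.0464), both binders of fibrillar collagen, with a list median of -5.51. Pxdn, Aspn and Bgn were measured on neither IFE array, and Ddr2 on neither HFSC array of this comparison. These genes entered the test only through arrays where they were brighter, so their calls were favoured by the filter. The proteoglycan median is likewise limited by background.

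Plucking pulls out the hair and brings on a new hair cycle, and the 4 pairs of plucked and unplucked HFSCs show the chains 3 days later. No chain of 29 passed the test over the 4 pairs (limma with mouse type as a term), while 0.393% of 25422 genes were higher and 0.106% lower. An unadjusted p under 0.05 was reached by 7 chains, beside 17.6% of all genes. The chain median was 0.05, beside -0.06 over all genes. By direction, 5 chains lay lower on all 4 plucked than on all 4 unplucked arrays, against 4.42% of all genes, and 2 lay higher, against 6.29% of all genes. The 5 were Col1a2, Col5a2, Col6a1, Col6a2 and Col12a1, and the 2 were Col5a1 and Col16a1.

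**Figure D5:**
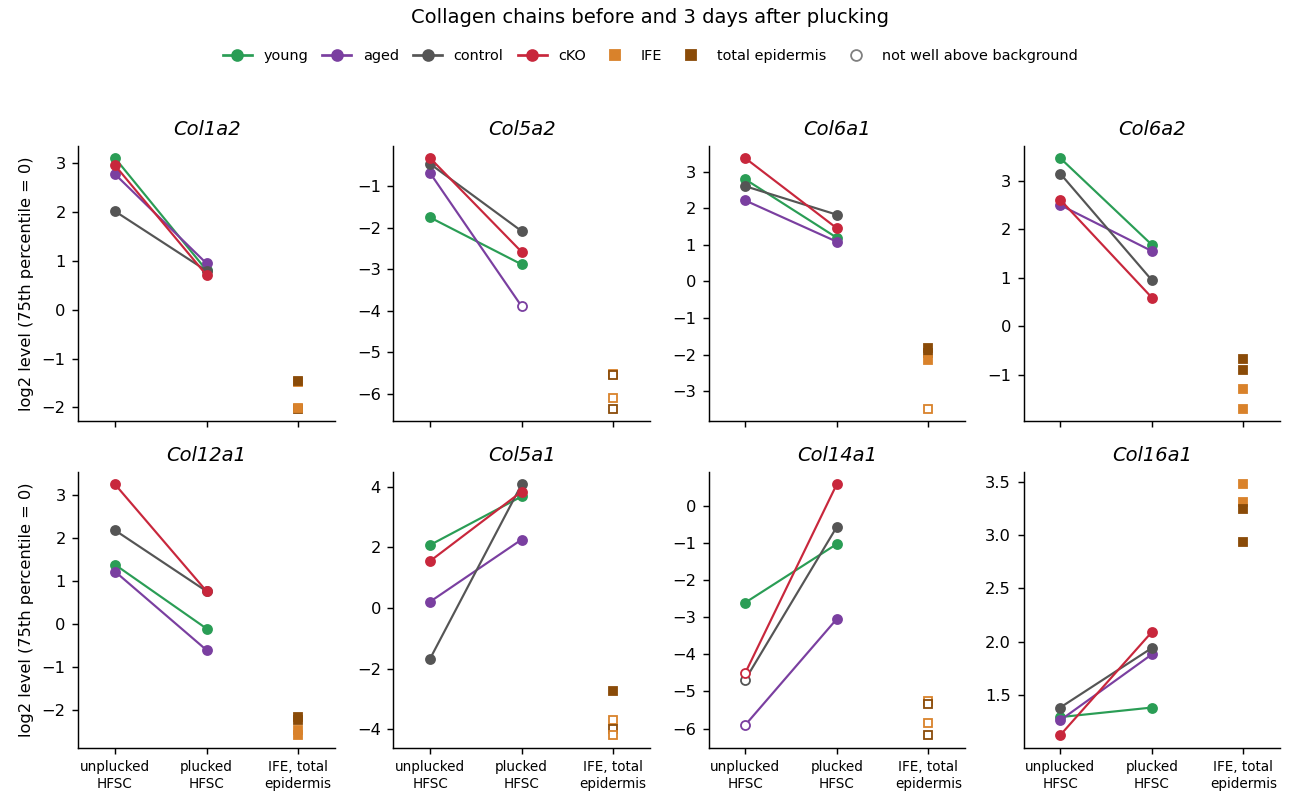
Levels of 8 chains on the log2 scale relative to each array's 75th percentile in unplucked and plucked HFSCs, joined by a line for each kind of mouse, beside the 4 unplucked epidermal arrays. Open points were not well above background. The first 5 chains have lower values after plucking in every pair and stay above the epidermal values, and Col5a1, Col14a1 and Col16a1 have higher values in every pair.

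Col1a2 went from 3.11 to 0.81 in young, 2.78 to 0.95 in aged, 2.02 to 0.80 in control and 2.96 to 0.71 in cKO HFSCs. All 4 plucked values lay within 0.71 to 0.95, below every unplucked HFSC and above every epidermal array. The difference was -1.90 ± 0.29 over the 4 pairs (adjusted p = 0.0712). Col12a1 went from 1.38 to -0.11 in young, 1.22 to -0.61 in aged, 2.18 to 0.76 in control and 3.25 to 0.76 in cKO HFSCs, a difference of -1.81 ± 0.29 (adjusted p = 0.0747). Its other probe gave a mean of -0.49.

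Of the type VI chains, Col6a1 and Col6a2 had lower values after plucking in every pair, and neither passed the test. Col6a2 went from 3.47 to 1.68 in young, 2.50 to 1.55 in aged, 3.15 to 0.95 in control and 2.61 to 0.59 in cKO HFSCs (-1.74 ± 0.30, adjusted p = 0.0877), while its other probe gave a mean of only -0.14. Col6a1 differed by -1.60, -1.14, -0.79 and -1.92 in the young, aged, control and cKO pairs (-1.36 ± 0.29, adjusted p = 0.117). The probes differ in the plucking value of Col6a2, so its size is uncertain. Col6a4, dim on most arrays, differed by 0.34 ± 0.32 (adjusted p = 0.619).

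The chains of type V collagen had opposite signs after plucking. Col5a2 went from -1.75 to -2.88 in young, -0.68 to -3.89 in aged, -0.46 to -2.08 in control and -0.32 to -2.58 in cKO HFSCs (-2.05 ± 0.41, adjusted p = 0.105), with the plucked aged value not well above background. Col5a1 went from 2.08 to 3.68 in young, 0.21 to 2.26 in aged, -1.67 to 4.08 in control and 1.55 to 3.84 in cKO HFSCs (2.92 ± 0.75, adjusted p = 0.157). No plucked array overlapped an unplucked one for either chain, and neither passed the test. A Col5a1 value of 1.60 in the young and 5.75 in the control pair shows how far the pairs differed.

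Col14a1, a FACIT bound to fibrils, went from -2.61 to -1.03 in young, -5.91 to -3.05 in aged, -4.69 to -0.57 in control and -4.51 to 0.58 in cKO HFSCs. It was measured on all 4 plucked arrays and on the unplucked array of the young mice alone. The measured difference was 3.41 ± 0.62 (adjusted p = 0.092), its size open to background in the other unplucked values, while its other probe, dim on most arrays, gave a mean of 0.71, and normexp with quantile normalization gave 1.24. Col16a1, at 1.12 to 1.38 unplucked and 1.38 to 2.09 plucked, differed by 0.56 ± 0.26 (adjusted p = 0.342).

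The outcome of the test depended on the processing. With normexp and quantile normalization the 5 chains that were lower in every pair all passed the test, and with only genes measured on all 8 arrays Col1a2, Col6a1, Col6a2 and Col12a1 did, while Col5a2 was not tested there. Leaving out any 1 pair, or the unplucked control and cKO arrays, left 0 chains and 0 genes called. On slide 2, whose arrays took no part in the epidermal fits, the control and cKO pairs gave -1.22 and -2.25 for Col1a2. They gave -1.62 and -2.25 for Col5a2, -0.79 and -1.92 for Col6a1, -2.20 and -2.02 for Col6a2 and -1.42 and -2.49 for Col12a1. These 5 chains were picked for lower values on all plucked arrays, slide 2 included, so the signs were fixed in advance. The comparisons of plucking and of epidermal cells share the unplucked young and aged HFSC arrays.

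Basement membrane chains showed no common direction after plucking. Col4a1 differed by 1.48, 2.04, -0.34 and 0.88 in the young, aged, control and cKO pairs (1.02 ± 0.44, adjusted p = 0.323). Col4a4 was lower in every pair, by -0.69 ± 0.31 (adjusted p = 0.336). Col7a1 was lower in 3 of 4 pairs, by -0.58 ± 0.27 (adjusted p = 0.342), and Col18a1 differed by 0.21 ± 0.31 (adjusted p = 0.753). Of the 8 fibroblast markers, 2 to 4 were measured per unplucked and 4 to 5 per plucked HFSC array. None of the 5 tested passed (limma), with a list median of 0.26. Fbln1 differed by 0.26 ± 0.26 (adjusted p = 0.634). Dcn, measured on no unplucked HFSC array, had higher values in every pair, such as -3.46 to -1.06 in young HFSCs. Thy1 was lower in the young, aged and control pairs and higher in the cKO pair. Their part in the result was not tested.

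Among the genes that act on collagen, 1 crosslinking gene was higher and 1 proteoglycan lower after plucking, and no gene of the other 3 lists passed, beside 0.393% higher and 0.106% lower over all genes. The list medians lay between -0.19 and 0.86. Pxdn rose by 3.07 ± 0.34 (adjusted p = 0.047), from -2.94 to -1.88 unplucked to -0.33 to 1.06 plucked. Aspn fell by 4.08 ± 0.39 on the log2 scale (adjusted p = 0.0448), from 1.60 to 3.13 unplucked to -2.22 to -0.70 plucked. Bgn, at -0.16 to 1.73 unplucked and 3.92 to 4.21 plucked, did not pass (3.34 ± 0.39, adjusted p = 0.0514). Serpinh1 differed by 0.01 ± 0.25 (adjusted p = 0.988).

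Whether the change with plucking differed between aged and cKO cells and their unaltered counterparts was tested as an interaction. No chain of 29 and 0% of the genes passed in limma, and 0 chains had an unadjusted p under 0.05, beside 4.51% of all genes. The chain with the smallest p was Col4a5, at -1.51 ± 0.59 (limma, adjusted p = 0.999). For Col5a2 it was -1.36 ± 0.62 and for Col1a2 -0.28 ± 0.64.

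Aged HFSCs were set against young ones over the unplucked and the plucked pair. No chain and 0% of the genes passed (limma), and 1 chain, Col14a1, had an unadjusted p under 0.05, beside 4.82% of all genes. Col14a1 was lower in both pairs (-2.66 ± 0.87, adjusted p = 0.932), its unplucked aged value being not well above background. The other probe of Col14a1 gave a mean of the opposite sign, 0.30, and normexp with quantile normalization gave -0.68 for the probe used. Col4a3 (-2.05 ± 1.03), Col5a1 (-1.64 ± 1.06), Col4a2 (-1.01 ± 0.76) and Col18a1 (-0.72 ± 0.44) were also lower in both pairs, each with an adjusted p of 0.932, and the plucked aged value of Col4a3 was not well above background. Col5a1 had lower values in the aged sample of all 4 cell samples compared, by -1.87 in HFSCs, -1.42 in plucked HFSCs, -0.50 in IFE and -1.25 in total epidermis, but neither IFE value, nor that of aged total epidermis, was well above background. Scaling arrays to their median shifts all genes of this comparison by -0.26, which turned the sign of Col16a1, Col5a2, Col7a1 and Col9a1 but of none of these 5.

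With 1 array against 1 and no test, 3 of 27 chains were at least 2-fold higher and 7 at least 2-fold lower in aged than in young HFSCs, while 30.0% of all genes were that far apart in either direction. In plucked HFSCs 4 were higher and 5 lower of 28, beside 20.0% of all genes. In IFE it was 3 and 3 of 23, and in total epidermis 1 and 1 of 24, beside 12.1% of all genes in each. Col18a1 lay on opposite sides, at -1.17 in aged against young IFE and 1.60 in total epidermis. Over the 4 epidermal arrays, no chain of 23 and 0% of the genes passed (limma with population as a term), and 0 chains had an unadjusted p under 0.05, beside 6.53% of all genes. The largest differences with 1 sign in both populations included those of Col8a1 (-0.88 ± 0.47) and Col6a1 (0.74 ± 0.39, with the young IFE value not well above background).

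Loss of Col17a1 in the cKO was followed in the same way. The deleted gene itself differed by -0.37 ± 0.39 between cKO and control HFSCs (adjusted p = 0.923), by -0.43 and -0.31 in the 2 pairs. The labels do not say which exons were deleted or whether this probe covers them, so the genotype rests on the labels. No other chain and 0% of the genes passed (limma), and 1 chain, Col3a1, had an unadjusted p under 0.05 (-1.07 ± 0.41, adjusted p = 0.763), beside 6.47% of all genes. Neither cKO value of Col3a1 was well above background, and it was at least 1.26-fold lower in the cKO. Col4a3 (1.73 ± 1.03), Col1a1 (1.32 ± 0.90) and Col4a1 (-1.24 ± 0.63) had 1 sign in both pairs, with adjusted p from 0.797 to 0.842. Col10a1 and Col26a1 were not well above background in either control sample and in 1 of the 2 cKO samples each, at least 1.43-fold and at least 1.23-fold higher in the cKO (adjusted p = 0.795 and 0.919).

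In single unplucked arrays, 11 of 28 chains exceeded the control by 2-fold or more in the cKO sample and 3 lay below it by as much. Of 24080 genes, 4251 were higher and 5025 lower by as much, 38.5% in either direction. Among the chains were Col5a1 (3.22), Col4a3 (2.48), Col1a1 (2.39) and Col4a2 (2.02), and Col4a1 (-1.85) on the lower side. Both of these arrays are the ones that correlate least with the rest. In the plucked arrays Col5a1 differed by -0.24, Col1a1 by 0.26 and Col4a2 by -0.61, with 4 chains higher and 2 lower of 30. Of 25069 genes, 2903 were higher and 3019 lower there, 23.6% in either direction. The differences of the unplucked pair were thus not seen in the plucked pair for Col5a1, Col1a1 and Col4a2. Col4a3 (0.97) and Col4a1 (-0.63) kept their sign there.

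Control and young HFSCs, which differ in tamoxifen, age in weeks and slide and cannot be told apart by any 1 of these, gave no chain and 0% of genes past the test (limma). An unadjusted p under 0.05 was reached by 1 chain, Col25a1 (-1.50 ± 0.52, adjusted p = 0.571), beside 8.72% of all genes. Col4a1 (1.15 ± 0.63), Col5a2 (1.05 ± 0.57) and Col9a2 (-0.85 ± 0.35) followed with 1 sign in both pairs, at adjusted p from 0.571 to 0.606. Col10a1 was not measured on any of these 4 arrays.

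The remaining chains were dim or flat. Col2a1, Col5a3 and Col6a6 were each measured on 1 array and Col26a1 on 2, so no difference can be read for them beyond those arrays. Col5a3 was measured in the unplucked cKO sample alone, at -0.92. Col6a4 was measured on 4 arrays, Col10a1 on 5, Col19a1 on 7, Col9a1 on 8 and Col9a2 on 11. Col11a2, Col8a1 and Col25a1, measured on all arrays, passed no test, with differences in IFE of 1.09 ± 0.36 for Col11a2 (adjusted p = 0.2).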

How the data were processed

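RNA of sorted mouse skin cells was amplified and hybridised to one-colour Agilent arrays, per the labels' protocols. The deposited scanner values are spot intensities from Agilent's Feature Extraction software, version 10.7.3.1, which subtracted background and detrended them, per the file headers. The software's flags for spots well above background and outlier spots were deposited by the authors beside them. The authors' deposited matrix holds log2 values, used as an alternative only. How it was made is not given in the sources used here. Its columns tracked the processed scanner values below after centring each probe on its median (r of at least 0.9999 over 55260 probes), and the column medians ran from -0.2 to 0.17, so its direction is that of the scanner values. Its scale and centring are inferred.

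Here control and outlier spots were left out, no spot was saturated, and the processed intensity was divided by each array's 75th percentile, log2-transformed and averaged per probe. Of 55681 probes, 28026 matched a RefSeq symbol by accession, and the names of 39 of the 41 chains equalled that symbol. Probe positions are on mm9, those of promoters on GRCm38.p6. A gene entered a fit when at least 2 of its arrays measured it well above background; tests were run with limma 3.58.1 (R 4.3.3, package data.table, version 1.17.8), calling eBayes on lmFit and adjusting by Benjamini-Hochberg with a threshold of 0.05. With 1 array per group, the spread came from matched pairs in additive fits: mouse type and plucking over 8 HFSC arrays (3 residual degrees of freedom), population and age over 6 arrays (2) and over 4 epidermal arrays (1), and the interaction over 8 arrays (2). Errors are moderated standard errors. "At least" folds set the brighter group against, per array, the higher of the dim probe's signal and the lowest signal well above background. The code was tested on simulated data. Single arrays were compared by a 2-fold threshold, with no test. Plots used matplotlib 3.10.9 under Python 3.11.15.

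Named were the chains past the threshold, the 5 with the largest difference of 1 sign in every pair per comparison, the chains of known trimers, those measured on all arrays, and the rest by their number of arrays. Of other lists, genes past the threshold were named, and a few more from the same lists where a result bears on them. The members and lists were chosen with earlier results of these data known. The number of arrays, not counting, limits the precision. No arrays were identical, and no column of another series was present.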

Additional observations from a re-analysis of the deposited data

How the results depend on the processing

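Pairing by animal was not possible, because the labels do not say which samples shared an animal. Arrays were matched by mouse type, age or population, which is a term of each fit. Of plucking in HFSCs, 5 chains passed with normexp and quantile normalization, where 1123 of all genes passed against 127, and 4 with only genes well above background on all arrays of the fit, where 703 did. The number of genes called there was 168 with scaling to the median, 273 with the mean over all probes, 22 without a filter, and 0 without any 1 pair. Of IFE against HFSCs, 5 chains passed with only genes well above background on all arrays, where 15 were tested, 3 lower and 2 higher. Over all genes, 1177 of 18139 passed there. Of total epidermis against HFSCs, 5 passed without a filter on dim genes, where 327 of all genes passed against 933. Of IFE against HFSCs, 605 of all genes passed without a filter, against 1134. Other causes were not tested. The share of plucking calls that were higher was 78.7% and became 64.6% and 59.9% under the first 2 alternatives. Among the chains named in each comparison, 328 values kept direction and side of the threshold, 32 moved, 15 lost and 5 gained the call. None of these was counted as reversed, but they were named for passing the threshold or for 1 sign in every pair. A kept sign was thus favoured in advance, and other chains did turn sign, as given above. For the comparisons of the 6 arrays, leaving out 1 age leaves no residual degrees of freedom and so gives values with no test. Dim chains, such as Col1a1 and Col5a2 in epidermal cells, are limited by background.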
